A study of Mus musculus with 205 samples.

Results

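The hammerhead ribozyme (HHR) was compared within the transient Tandem format of the MitoKO editors, over the 4 mouse mitochondrial genes for which both versions were made. The members were all transient Tandem-HHR samples and all transient Tandem samples of Nd3, Cytb, CoII and Atp6, 3 of each per gene, hence 12 Tandem-HHR and 12 Tandem samples, or 24 of the 205 samples of the series. NIH/3T3 mouse embryonic fibroblasts transfected with a Tandem-HHR plasmid for 1 of the 4 genes were set against the same cells transfected with the Tandem plasmid for that gene, without the ribozyme. In addition, 3 samples carried the empty Tandem vector, which encodes no editor. Every one of these cultures was an established cell line transfected transiently from a CMV promoter, sorted for the mCherry marker of the plasmid and, per its label, collected 7 d after transfection, although a scheme in the study draws a longer recovery. Replicates were separate transfections of distinct aliquots of cells. All 27 libraries came from the same sequencing run. An empty Tandem vector with the ribozyme was not analysed here, and editor mRNA and protein were not measured in these files, so the presence of the ribozyme rests on the labels.

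A DddA-derived cytosine base editor (DdCBE) consists of a pair of TALE arrays that bind neighbouring stretches of mtDNA, each fused to a split part of the bacterial deaminase DddAtox and to an inhibitor of uracil glycosylase. When both parts meet on the DNA, cytosines preceded by thymine are deaminated and C:G pairs become T:A. In the Tandem format, both editor proteins are translated from a single mRNA and are separated by a ribosome-skipping peptide. The HHR placed behind the coding sequence cleaves the mRNA that carries it and removes the poly(A) tail, which is known to lower the amount of protein made. In mouse mitochondria TGA encodes tryptophan, so a C-to-T change on the strand opposite to the G of a TGA codon yields the stop codon TAA.

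The target bases are shown with 13 bases on each side of the codon, since on-target editing is read at these 4 positions. Sequences are of the + strand of mtDNA (chrM, GRCm38), 5′ to 3′, and capitals mark the TGA codon whose middle base is edited.
Nd3: tctagttgcattcTGActcccccaaataa
Cytb: cgtaaattacgggTGActaatccgatata
CoII: catagggcaccaaTGAtactgaagctacg
Atp6: ttctttccaacacTGActagttaaactta
Positions are counted along chrM and changes are given for the + strand. The Nd3 window covers chrM:9512-9540, and G9526A converts codon 23 of the 116 codons of mt-Nd3 (ENSMUSG00000064360.1, chrM:9459-9806), which encodes a membrane subunit of complex I. The Cytb window covers chrM:14360-14388, and G14374A converts codon 77 of 382 in mt-Cytb (ENSMUSG00000064370.1, chrM:14145-15288), the cytochrome b of complex III. The CoII window covers chrM:7309-7337, and G7323A converts codon 104 of 228 in mt-Co2 (ENSMUSG00000064354.1, chrM:7013-7696), the copper-containing subunit of cytochrome c oxidase that accepts electrons from cytochrome c. The Atp6 window covers chrM:8055-8083, and G8069A converts codon 48 of 227 in mt-Atp6 (ENSMUSG00000064357.1, chrM:7927-8607), the subunit of ATP synthase that forms part of its proton channel. All 4 sites lie inside the coding sequence of genes without introns. Each target G is followed by A, which reads as TC on the opposite strand. The stop would leave 19.1% of the codons of Nd3 before it, 19.9% in Cytb, 20.8% in Atp6 and 45.4% in CoII.

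On-target editing, the percentage of reads with the stop-creating change at the target base, was lower with the ribozyme in all 4 genes. Over the genes it averaged 26.7% ± 3.63 in Tandem-HHR samples and 42.3% ± 6.33 in Tandem samples (SD of the 4 gene means), a difference of -15.7 percentage points ± 3.25 (SD over genes). In an exact permutation test with format labels permuted within each gene (160000 arrangements, two-sided), p was 2.5e-05. That test treats same-numbered samples as independent. With the replicate number as the unit, 3 against 3, the exact permutation p was 0.1, the smallest possible. Here the means of the numbers were permuted freely, without pairing same numbers. With 3 samples against 3, no single gene could pass a threshold of 0.05, since the smallest exact p is 0.1.

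In Nd3, on-target editing was 29.5%, 20.9% and 22.0% in the Tandem-HHR replicates 1, 2 and 3, against 39.9%, 28.5% and 41.5% in the Tandem replicates. The highest Tandem-HHR sample lay above the lowest Tandem sample, and Nd3 was the single gene whose groups overlapped (exact permutation p = 0.2). In Cytb, on-target editing was 23.5%, 18.6% and 26.9% in Tandem-HHR samples, against 40.3%, 30.0% and 43.9% in Tandem samples. The groups did not overlap (exact permutation p = 0.1). In CoII, the values were 31.3%, 25.5% and 31.1% in Tandem-HHR samples and 55.8%, 33.7% and 43.1% in Tandem samples, again with no overlap (exact permutation p = 0.1). The Tandem samples of CoII were the most scattered of all groups on target (SD 11.1 percentage points), against an SD of 3.32 points in its Tandem-HHR samples. In Atp6, the most edited gene in both formats, the values were 35.5%, 23.3% and 32.0% in Tandem-HHR samples and 50.4%, 39.5% and 61.4% in Tandem samples (no overlap, exact permutation p = 0.1). Replicate 2 was the lowest sample on target in 8 of the 8 groups. Within the Tandem-HHR format, the gene means ran from 23.0% ± 4.20 in Cytb through 24.2% ± 4.68 in Nd3 and 29.3% ± 3.32 in CoII to 30.3% ± 6.31 in Atp6 (SD, n = 3 each), and neighbours in this order differed by less than their SDs or, between Nd3 and CoII, by little more than the larger of them.

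**Figure D1:**
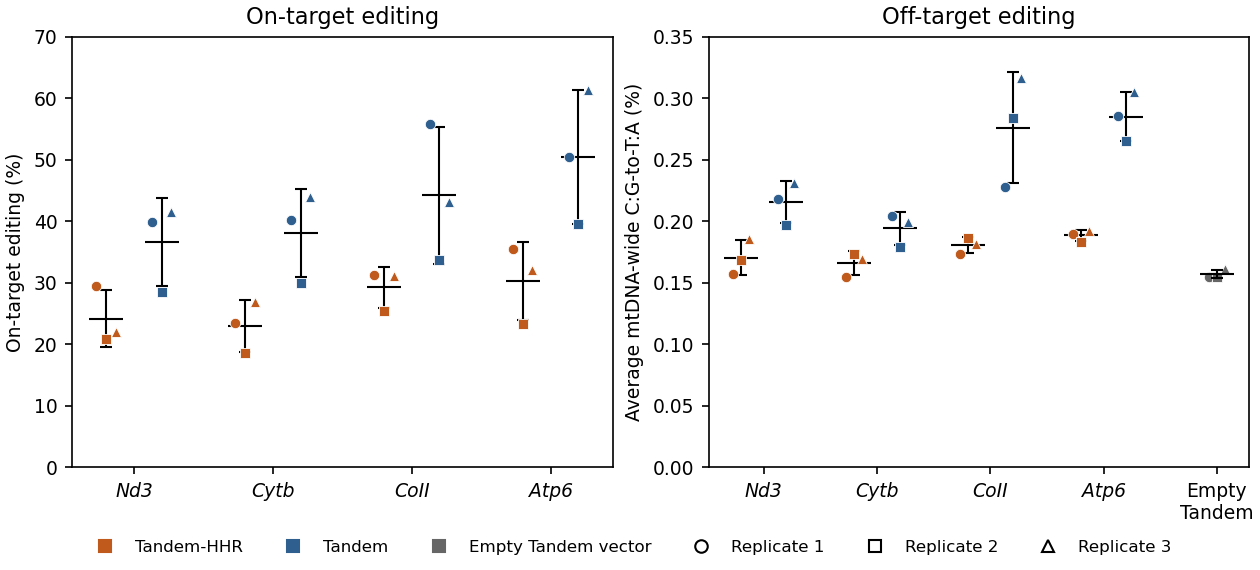
On-target editing (left, percent) and mean off-target editing of the mtDNA (right, percent) in each sample, with Tandem-HHR samples in orange, Tandem samples in blue and empty Tandem vectors in grey. Marker shapes give the replicate number, and black lines give the mean ± SD of 3 samples. On target the groups overlap only in Nd3, whereas off target all 12 Tandem-HHR samples lie below every Tandem sample of the same gene.

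Off-target editing, the average C:G-to-T:A percentage over the mtDNA, was also lower with the ribozyme in all 4 genes, and here no gene's groups overlapped. The mean was 0.176% ± 0.0101 in Tandem-HHR samples and 0.243% ± 0.0448 in Tandem samples (SD of the 4 gene means), a difference of -0.0664 percentage points ± 0.0351 (SD over genes). The exact permutation test within genes gave p = 1.25e-05 (two-sided), the smallest value that its 160000 arrangements allow. With the replicate number as the unit, the exact permutation p was 0.1. The empty Tandem vectors had 0.155%, 0.155% and 0.161% (mean 0.157% ± 0.00334, SD, n = 3).

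Nd3 had 0.157%, 0.169% and 0.185% off target in Tandem-HHR samples, against 0.218%, 0.197% and 0.231% in Tandem samples. Cytb, the gene with the least off-target editing in both formats, had 0.155%, 0.174% and 0.170% in Tandem-HHR samples, against 0.204%, 0.179% and 0.199% in Tandem samples. The distance between the groups was smallest in Cytb, where the highest Tandem-HHR sample and the lowest Tandem sample were at 0.174% and 0.179%. CoII had 0.173%, 0.186% and 0.182% in Tandem-HHR samples and 0.228%, 0.284% and 0.317% in Tandem samples. Atp6 had 0.190%, 0.183% and 0.192% in Tandem-HHR samples and 0.286%, 0.265% and 0.305% in Tandem samples. The differences, Tandem-HHR minus Tandem, were -0.0450 ± 0.0129 points in Nd3, -0.0282 ± 0.00944 in Cytb, -0.0957 ± 0.0263 in CoII and -0.0967 ± 0.0118 in Atp6 (± SE, exact permutation p = 0.1 in each). The order of the genes was Atp6, CoII, Nd3 and Cytb in both formats, but the 12 Tandem-HHR samples spanned 0.0374 points and the 12 Tandem samples 0.137 points.

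The Tandem-HHR samples remained slightly above the empty vector as a group. The 12 samples exceeded the 3 empty vectors by 0.0194 points on average (exact permutation test over 455 splits, two-sided, p = 0.0220), and 10 of the 12 were higher than the highest empty vector. The other 2, replicate 1 of Nd3 and replicate 1 of Cytb, fell within the range of the empty vectors. The test pools the 12 samples of 4 genes as exchangeable, without the gene as a stratum. Should the deposited average include the target base, which is not stated, the target would add 0.00446 points on average to Tandem-HHR samples. The empty vectors would gain nothing from it. Without replicate 2 the excess was 0.0176 points with an exact p of 0.178, and without replicate 3 it was 0.0184 points with an exact p of 0.111. By gene, the excess over the empty vector was 0.0135 points ± 0.0142 in Nd3 (exact permutation p = 0.2), 0.00912 ± 0.00974 in Cytb (p = 0.3), 0.0235 ± 0.00660 in CoII (p = 0.1) and 0.0315 ± 0.00457 in Atp6 (p = 0.1; SD of 3 Tandem-HHR samples). In Tandem samples it was 0.0584 points ± 0.0172 in Nd3, 0.0373 ± 0.0131 in Cytb, 0.119 ± 0.0451 in CoII and 0.128 ± 0.0199 in Atp6, and 12 of 12 samples were above the highest empty vector.

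Mean coverage, the average number of reads over a position of the mtDNA, was 265 to 7117 in Tandem-HHR samples (median 324) and 148 to 795 in Tandem samples (median 371). A single library exceeded 1000, replicate 2 of Atp6 Tandem-HHR at 7117, and its off-target percentage of 0.183% lay within 0.01 points of the other Atp6 Tandem-HHR samples. Coverage was lower in every Tandem-HHR sample than in every Tandem sample of the same gene in Cytb (290 to 329, against 350 to 438) and in CoII (265 to 358, against 363 to 600), whereas the groups overlapped in Nd3 and Atp6. Its part in the off-target difference was not tested. Averaged over replicates, coverage was lower in Tandem-HHR than in Tandem samples in Nd3 (308 against 582), Cytb (314 against 389) and CoII (316 against 482). In Atp6 it was higher (2635 against 277), through the library at 7117. The other Atp6 Tandem-HHR libraries were at 510 and 278. The read depth at the target base itself is unknown, so no counting interval is given for an on-target percentage.

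To ask whether the ribozyme lowered on-target editing and off-target excess by the same share, each Tandem-HHR mean was divided by the Tandem mean of its gene. For the off-target excess, the mean of the 3 empty Tandem vectors was first subtracted from both. On target, the share kept was 0.660 ± 0.104 in Nd3, 0.604 ± 0.0916 in Cytb, 0.663 ± 0.105 in CoII and 0.600 ± 0.104 in Atp6 (± propagated SE). Of the off-target excess, the share kept was 0.230 ± 0.148 in Nd3, 0.245 ± 0.164 in Cytb, 0.197 ± 0.0552 in CoII and 0.246 ± 0.0322 in Atp6. Hence 34.0%, 39.6%, 33.7% and 40.0% of on-target editing was lost in Nd3, Cytb, CoII and Atp6, and 77.0%, 75.5%, 80.3% and 75.4% of the excess. The means over the 4 genes were 0.632 ± 0.0342 on target and 0.230 ± 0.0227 for the excess (SD over genes). The excess share was 0.349 ± 0.231 of the on-target share in Nd3, 0.405 ± 0.278 in Cytb, 0.298 ± 0.0958 in CoII and 0.410 ± 0.0892 in Atp6 (± propagated SE), so it was the smaller share in 4 of 4 genes. The Cytb excess share rested most on single replicates, at 0.101 without replicate 2 and 0.434 without replicate 1. The empty-vector mean is common to all 4 excess shares.

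**Figure D2:**
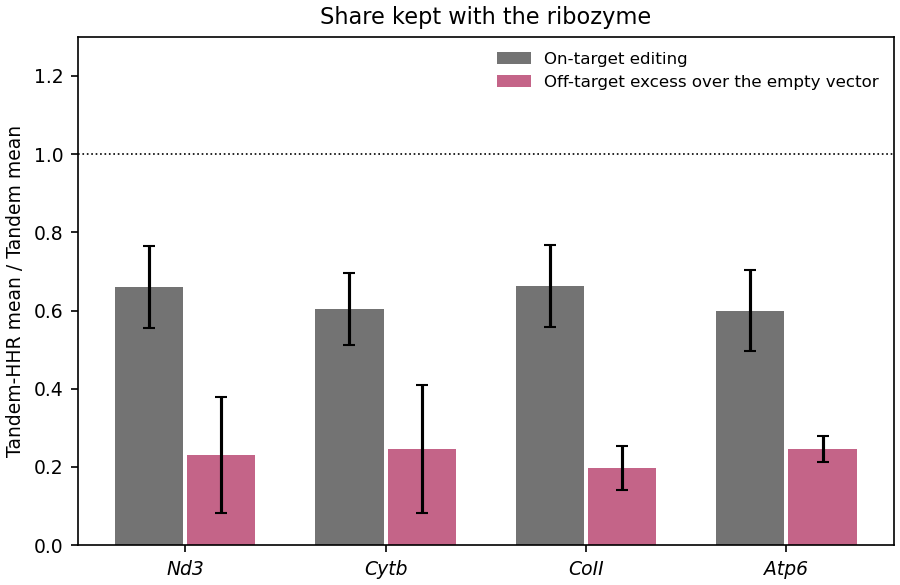
Share of on-target editing (grey) and of off-target excess over the empty Tandem vector (pink) kept with the ribozyme in each gene, as the Tandem-HHR mean over the Tandem mean, with propagated standard errors; the dotted line marks no change. The on-target shares lie between 0.600 and 0.663 and the excess shares between 0.197 and 0.246.

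The comparison of the 2 shares was tested sample by sample with the excess per percent of on-target editing, a quotient that stays the same when both measures are lowered by the same share. It is given in thousandths of a percentage point of excess per percent on target. The quotient averaged 0.732 in Tandem-HHR samples and 2.00 in Tandem samples, a difference of -1.27 ± 0.677 (SD over genes, exact permutation test within genes, 160000 arrangements, two-sided, p = 5e-05). With the replicate number as the unit, the exact permutation p was 0.1. In Nd3 the quotient was 0.00659, 0.558 and 1.29 in Tandem-HHR samples, against 1.52, 1.41 and 1.79 in Tandem samples, with no overlap (exact permutation p = 0.1). In Cytb it was -0.0800, 0.897 and 0.468 in Tandem-HHR samples, against 1.17, 0.744 and 0.968 in Tandem samples. Cytb was the gene in which the quotients overlapped (exact permutation p = 0.2), and replicate 2 held both the highest Tandem-HHR value and the lowest Tandem value. The Cytb difference was -0.532, and it was -0.191 without replicate 1 and -0.889 without replicate 2. In CoII the quotient was 0.524, 1.16 and 0.794 in Tandem-HHR samples, against 1.27, 3.77 and 3.71 in Tandem samples (no overlap, exact permutation p = 0.1). Replicate 1 of CoII Tandem stood apart from the other CoII Tandem samples, with the highest on-target value of the group and the lowest off-target value. In Atp6 the quotient was 0.918, 1.14 and 1.11 in Tandem-HHR samples, against 2.55, 2.74 and 2.41 in Tandem samples, the clearest separation of the 4 genes relative to the spread (SD 0.120 and 0.165).

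Set against the excess per percent of the Tandem mean, 12 of 12 Tandem-HHR samples had less off-target editing than this quotient gives at their own on-target percentage. Tandem samples lay on both sides of the value so obtained, as they must, since it is drawn through their own mean. A straight rise of the excess with on-target editing is assumed here. Within genes such a rise was not detected (r of deviations from gene means 0.0749 in Tandem and -0.305 in Tandem-HHR samples). Had the excess been lowered by the on-target share, the mean off-target percentage of Tandem-HHR samples would have been 0.196% in Nd3, 0.179% in Cytb, 0.236% in CoII and 0.234% in Atp6. The measured means of 0.170%, 0.166%, 0.180% and 0.188% were 0.0251, 0.0134, 0.0555 and 0.0454 points below these values. The closest sample was replicate 2 of Cytb, at 0.174% against 0.175%.

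**Figure D3:**
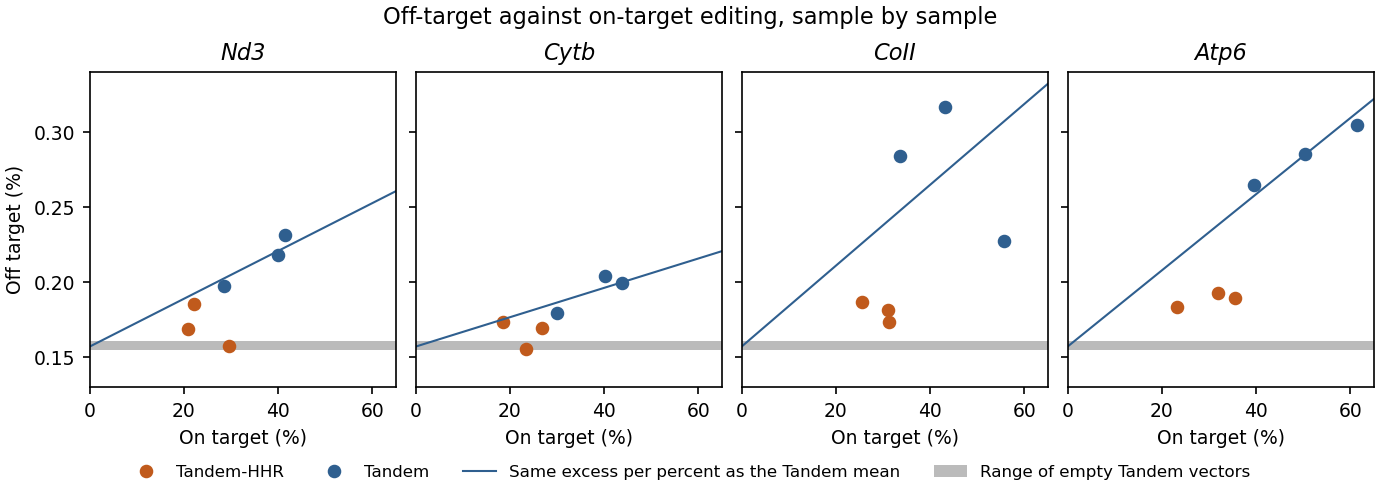
Off-target editing (y axis, percent, starting at 0.13) against on-target editing (x axis, percent) for each Tandem-HHR sample (orange) and Tandem sample (blue), in a panel per gene. The blue line joins the empty-vector mean at no editing with the Tandem mean of the gene, and the grey band is the range of the 3 empty Tandem vectors. All 12 Tandem-HHR points lie below the line of their gene.

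Because the on-target ranges of the formats met or nearly met, the most edited Tandem-HHR sample of each gene could be set beside the least edited Tandem sample. These pairs were picked by their on-target values and are given as a description. In Nd3, Tandem-HHR replicate 1 was at 29.5% on target and 0.157% off target, and Tandem replicate 2 was at 28.5% and 0.197%. In Cytb, Tandem-HHR replicate 3 was at 26.9% and 0.170%, and Tandem replicate 2 at 30.0% and 0.179%. In CoII, Tandem-HHR replicate 1 was at 31.3% and 0.173%, and Tandem replicate 2 at 33.7% and 0.284%. In Atp6, Tandem-HHR replicate 1 was at 35.5% and 0.190%, and Tandem replicate 2 at 39.5% and 0.265%. The on-target value of the Tandem-HHR sample was 1.04, 0.896, 0.929 and 0.899 of that of the Tandem sample in Nd3, Cytb, CoII and Atp6. The excess of the Tandem-HHR sample was 0.00484, 0.564, 0.129 and 0.301 of that of the Tandem sample in the same order. The off-target value was lower in the Tandem-HHR sample of all 4 pairs, by the least in Cytb. Any pair across the formats had to show this direction, since no gene's groups overlapped off target.

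The shares kept did not differ detectably between genes, while the excess itself was 3.44-fold higher in Atp6 than in Cytb in Tandem samples. On target, the SD of the share between the 4 genes was 0.0342, and permuting gene labels over the 12 Tandem-HHR samples, each divided by the Tandem mean of its gene, gave an exact p of 0.821. For the excess share the SD between genes was 0.0227 and the exact permutation p was 0.978. Both tests take the Tandem means as fixed. The spread rested on the replicates kept: without replicate 1 the SD between genes was 0.0784 on target (shares of 0.548 to 0.736) and 0.111 for the excess (shares of 0.183 to 0.434), with exact permutation p of 0.476 and 0.305. It was 0.0179 and 0.0592 without replicate 2, and 0.0592 and 0.0525 without replicate 3, on target and for the excess in turn. With standard errors of 0.0322 to 0.164 on a single gene's excess share, differences between genes of that order were not detectable with 3 samples each.

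The excess share depends on the background that is subtracted. With the lowest or the highest empty vector in place of the mean, the excess share averaged 0.252 and 0.182 over the genes. The background at which the excess share would equal the on-target share was 0.0831% in Nd3, 0.123% in Cytb, -0.00745% in CoII and 0.0435% in Atp6, each below the lowest empty Tandem vector at 0.155%. No empty Tandem vector carried the ribozyme, so a background that differs between Tandem-HHR and Tandem was not tested. It is not stated whether the deposited off-target average includes the target base. A target at the measured percentages would add 0.00310 to 0.0103 points to an average over the 5989 C:G pairs of the mtDNA, and with this amount removed the excess share averaged 0.185. The difference in the quotient stays at -1.27 by construction.

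**Figure D4:**
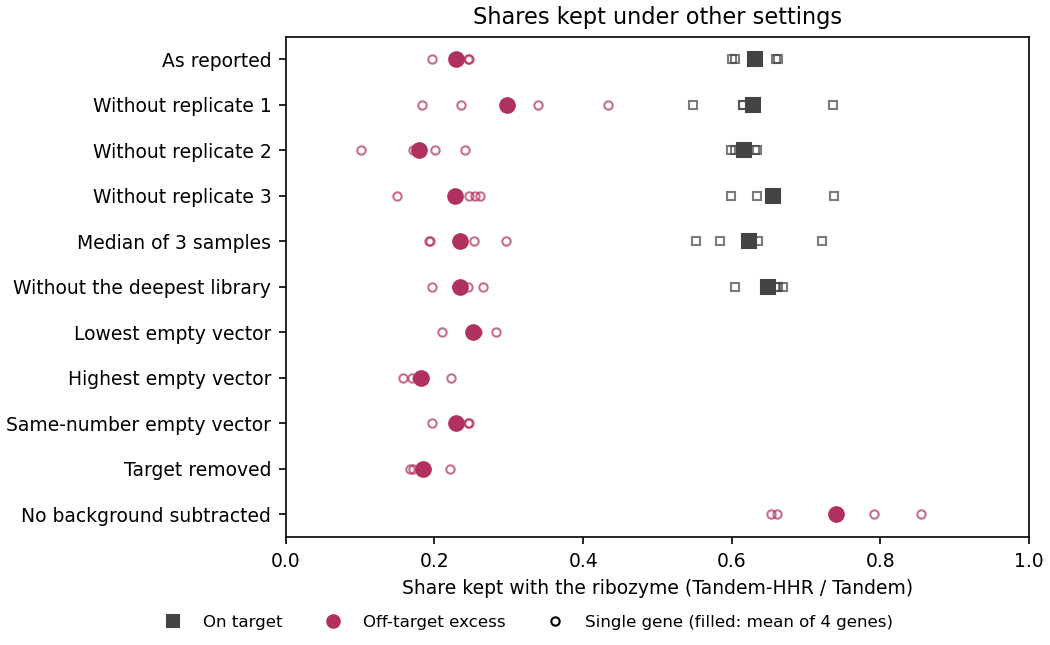
Shares kept with the ribozyme (x axis, Tandem-HHR over Tandem) on target (grey squares) and for the off-target excess (pink circles) under each setting on the y axis; filled symbols are means over 4 genes and open symbols single genes. The mean excess share stays between 0.179 and 0.298 under all settings shown that subtract a background, and it is 0.740 when none is subtracted.

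Within either format, samples with more on-target editing did not have detectably more off-target editing. Over the 12 Tandem-HHR samples Pearson's r was 0.301 (permutation p = 0.338, 0.488 after Benjamini-Hochberg adjustment over 6 relations) and Spearman's rho was 0.350 (permutation p = 0.264, adjusted 0.488). Without the 2 samples farthest from the median on target r was 0.150. Over the 12 Tandem samples r was 0.492 (permutation p = 0.106, adjusted 0.319) and rho was 0.524 (permutation p = 0.0833, adjusted 0.319), and without the 2 farthest samples r was 0.475. When the gene means were removed, r was -0.305 among Tandem-HHR samples (exact permutation within genes, p = 0.407, adjusted 0.488) and 0.0749 among Tandem samples (p = 0.879, adjusted 0.879).

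The ribozyme was also added to the 2-plasmid format and to stable Tandem lines of the same 4 genes. There, each excess was taken over the empty vectors of its own format, run and, in stable lines, day. In the 2-plasmid format the on-target share ran from 0.584 to 0.722 and the excess share from 0.205 to 0.674. Samples with and without the ribozyme differed in run and day in that format, with labels of 7 d and 14 d, and ribozyme, run and day cannot be told apart. The empty vectors averaged 0.151% in the run with the ribozyme and 0.0238% in the run without it. As deposited, off-target editing was higher in every 2-plasmid-HHR sample than in every 2-plasmid sample of the same gene in 4 of 4 genes, so these excess shares below 1 rest on the separate backgrounds. The stable lines had 1 sample per construct on each of days 28, 35 and 42, and the labels do not give the number of lines. For the stable constructs, a figure legend of the study gives 3 biological replicates. In these lines, the on-target share averaged over days ran from 0.589 in Nd3 to 0.907 in Cytb. The excess share ran from 0.131 in Atp6 to 2.76 in Cytb. Each day's excess rests on 1 empty vector. The Cytb excess shares were 1.22, 4.88 and 2.20 on days 28, 35 and 42. On day 35, Cytb Stable-Tandem was at 0.187% off target, close to its empty vector at 0.175%. The transient excess share was the lower in 3 of 4 genes against the 2-plasmid format (mean log2 difference -0.94, exact sign-flip p = 0.25) and in 3 of 4 genes against the stable lines (-1.31, exact sign-flip p = 0.25). The on-target share differed by -0.04 and -0.33 on the log2 scale (exact sign-flip p = 0.625 and 0.25). With 4 genes, this test cannot reach 0.05.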

How the data were processed

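Average off-target percent, on-target percent and mean coverage per sample were taken from the deposited tables as the authors wrote them. Per the study's methods, mtDNA was amplified as overlapping long-range PCR products, tagmented and sequenced on a MiSeq or NovaSeq (both Tandem formats in a MiSeq run), reads were trimmed with Trim Galore, aligned to GRCm38 chrM with Bowtie2, and variants were called with SAMtools and VarScan2. PCR duplicates carry no molecular identifiers, and read counts at the targets were not given, so percentages were compared without a count model.

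Table entries were matched to samples by name, and 12 entries that match no sample record were not used. Among these were empty Tandem entries of another run and stable-line entries of a later day. Exact permutation tests were run in Python 3.11.15 with NumPy 2.4.6 and were checked on simulated data. In these, the test of the spread between genes called too often, since it takes the Tandem means as fixed. Excess is the off-target percentage minus the mean of the 3 empty Tandem vectors, and in the other formats minus that of their own empty vectors (for stable lines, of the same day, without the ribozyme). Standard errors of shares were propagated from both group means and, for the excess, the empty vectors. All 4 genes were named. The p-values of Tandem-HHR against Tandem samples measure the spread between the 3 replicates of a group. Those of the spread between genes rest on permuted gene labels. Those of the relations rest on samples permuted over or within genes. The sign-flip p-values rest on the 4 genes. The test against the empty vector pools 12 samples of 4 genes. The members and tests were chosen with earlier results of these data known. Alternatives covered replicates, genes, scale, background, coverage and the inclusion of the target.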

Additional observations from a re-analysis of the deposited data

Results flagged for a closer look

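Cytb moved in opposite directions with the ribozyme in the transient and in the stable format. In transient cells, every Tandem-HHR sample had less off-target editing than every Tandem sample, with a mean difference of -0.0282 percentage points. In the stable lines, Cytb Stable-Tandem-HHR had 0.223%, 0.232% and 0.232% on days 28, 35 and 42, against 0.212%, 0.187% and 0.198% in Stable-Tandem, a mean difference of 0.0301 points. The difference between the formats was not tested, since each stable construct was sampled over time, without replicates on a day. The outer samples of the transient groups were not screened one by one, since groups of 3 are too small for this.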

How the results depend on the processing

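Counts of alternatives that kept the direction and the side of the threshold were 11 of 12 for the on-target difference, 12 of 13 for the off-target difference and 15 of 17 for the excess per percent on target. In the last count, the alternatives that removed the target could not change the difference, by construction. The labels do not say that a replicate number marks a shared day. Deviations of same-numbered samples from their group means correlated at 0.710 on target and 0.320 off target over all 12 pairs. Within replicates 1, 2 and 3, over the 4 genes, they correlated at -0.382, 0.631 and 0.0591 on target. Off target these values were -0.132, 0.608 and -0.358. A correlation within 1 number cannot show a shift common to all genes. On target, replicate 2 deviated on average by -4.62 points in Tandem-HHR samples and by -9.41 points in Tandem samples. The main tests did not treat the numbers as pairs, so their p-values do not account for a shift shared by a number. With the replicate block (labels swapped within gene and number), exact p was 0.000488 on target and off target (-15.7 and -0.0664 points) and 0.000977 for the quotient (-1.27). With the number itself as the unit, 3 against 3, the same values of -15.7, -0.0664 and -1.27 had an exact p of 0.1, the smallest possible. That test permuted the means of the numbers freely between formats, so it did not keep same-numbered samples as pairs. Swapping labels within gene and number changed no call.

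With no background subtracted, the excess share was 0.740 over the genes. The same setting for the quotient, chosen after seeing the data, reversed its difference to 0.936 (exact permutation p = 0.113), with 1.28 in Nd3, 2.22 in Cytb and 0.632 in Atp6 but -0.386 in CoII. In this setting the background, 0.157% in the empty vectors, is itself divided by the on-target percentage. That percentage averaged 26.7% in Tandem-HHR samples and 42.3% in Tandem samples. The background therefore raises the quotient more in Tandem-HHR samples by construction. Leaving out 1 replicate number gave an excess over the empty vector of 0.0176 to 0.0222 points (exact p up to 0.178), a correlation of deviations from -0.593 to 0.135 in Tandem-HHR samples and from -0.576 to 0.960 in Tandem samples, and an excess share of 0.179 to 0.298. In Cytb, the excess share was 0.101 without replicate 2 and 0.434 without replicate 1. Without Atp6, the on-target share differed from that of the 2-plasmid format by 0.0382 on the log2 scale. The log2 scale could not be used for the quotient, since 1 value was below 0.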
